A study of Mus musculus with 2 samples.

Results

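The genes examined were the calcium release channel gene Ryr2 and 9 genes of calcium storage, uptake and export in heart muscle, namely Casq2, Dhrs7c, Sln, Pln, Atp2a2, Trdn, Jph2, Slc8a1 and Camk2d. They were chosen by symbol, and all 10 were present among the 32245 features of both libraries. The libraries hold single nuclei from mouse cardiac tissue. One, CF-KI, came from Tcf21-MerCreMer;Nlrp3-A350V/A350V mice and the other, the control, from Tcf21-MerCreMer;Nlrp3-WT/WT mice, so both carried the Cre driver. All were males of the C57Bl6/J strain aged 3.5 months and had been injected with tamoxifen, which lets the MerCreMer enzyme enter the nucleus. Tcf21 marks fibroblasts in the heart, and the submitters describe the model as one in which the mutant allele stays silent wherever Cre is not expressed, so that heart muscle cells are not meant to express it. UMI counts do not show the allele, and the labels could not be checked by it. The labels name 1 library per group and do not say how many animals each one pooled.

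A heartbeat begins when calcium entering through the cell surface opens ryanodine receptors on the sarcoplasmic reticulum, the internal calcium store of the muscle cell. The released calcium drives contraction, and relaxation follows as a calcium pump returns it to the store and an exchanger at the cell surface removes the rest. Ryr2 encodes the release channel, and leak of calcium through it during diastole is a well-known route to atrial and ventricular arrhythmia. Casq2 binds calcium inside the store, Trdn anchors it to the channel, and Jph2 holds the store close to the surface membrane. Dhrs7c is a short-chain dehydrogenase of the sarcoplasmic reticulum. Atp2a2 encodes the pump SERCA2, which the small proteins of Pln and Sln inhibit. Slc8a1 encodes the sodium-calcium exchanger NCX1, and Camk2d the kinase CaMKII delta, which phosphorylates Ryr2 and phospholamban.

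RefSeq start-site sequence was at hand for 6 of the 10 genes (Ryr2, Casq2, Jph2, Pln, Slc8a1 and Camk2d). The 250 bases upstream of the start are shown on GRCm38.p6, 5′ to 3′ on the strand of the gene, for 3 genes with different roles, the release channel, the calcium buffer of the store and the exchanger, since Ryr2 differed in direction from Casq2 and Slc8a1. Capitals mark any match, on either strand, to the motif of a MEF2 site or of the serum response box known as CArG. They also mark the core promoter box spelled TATAAA. The core bound by GATA factors was searched as AGATAA. The M-CAT element, which muscle promoters often carry, was searched as CATTCC. E-boxes, with the letters CANNTG, are left in lower case. Matches of different motifs were allowed to overlap. The Ryr2 sequence lies at chr13:12106946-12107195 on the minus strand, the Casq2 sequence at chr3:102086165-102086414 on the plus strand, and the Slc8a1 sequence at chr17:81738388-81738637 on the minus strand.
Ryr2: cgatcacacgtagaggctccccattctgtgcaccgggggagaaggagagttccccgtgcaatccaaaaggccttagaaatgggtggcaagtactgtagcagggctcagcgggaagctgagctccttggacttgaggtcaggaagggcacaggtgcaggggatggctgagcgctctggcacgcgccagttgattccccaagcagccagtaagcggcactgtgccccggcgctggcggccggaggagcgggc
Casq2: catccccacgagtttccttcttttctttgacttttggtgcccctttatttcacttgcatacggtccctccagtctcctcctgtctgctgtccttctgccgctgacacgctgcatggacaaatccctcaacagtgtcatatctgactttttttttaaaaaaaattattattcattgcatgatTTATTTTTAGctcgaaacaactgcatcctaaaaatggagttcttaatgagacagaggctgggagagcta
Slc8a1: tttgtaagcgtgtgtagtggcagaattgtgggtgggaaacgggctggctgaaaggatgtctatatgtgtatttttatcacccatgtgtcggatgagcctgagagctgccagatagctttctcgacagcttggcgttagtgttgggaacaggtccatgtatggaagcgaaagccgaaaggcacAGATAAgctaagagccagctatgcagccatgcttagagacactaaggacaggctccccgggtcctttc
Ryr2 had no match besides E-boxes and a GC content of 63.2%, against a median of 52.4% over 32851 promoters. Casq2 held a MEF2 site at position -69 from the start, a motif present in 2.92% of promoters of this length, and had a GC content of 41.6%. Slc8a1 held a GATA factor core at position -68, found in 9.99% of promoters. Among those not printed, Pln held a TATA box at position -219 and a GATA factor core at position -183, and Jph2 and Camk2d held none of the motifs in capitals. E-boxes occur in 66.2% of promoters and were present in all of these but Camk2d. Such matches are letters in a window and were not measured as binding sites.

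The libraries were of unlike quality, and this touches every value below. CF-KI had 15077 barcodes with 21603653 UMIs (unique molecular identifiers, 1 per captured RNA molecule), and the control 11257 barcodes with 18040776 UMIs. Per barcode, the median share of mitochondrial UMIs was 14.2% for CF-KI and 3.46% for the control. The libraries shared 46 barcode sequences. Clustering of the 12681 and 10858 retained nuclei gave 4205 CF-KI and 2536 control nuclei in 3 clusters whose raised genes were the fixed cardiomyocyte markers (10 to 15 of 15), here called cardiomyocyte-like. Of these, 1662 and 2205 nuclei had at most 5% mitochondrial UMIs and were compared first, with a median of 1740 and 2289 UMIs per nucleus. Within that limit the median mitochondrial share still differed, at 2.75% in CF-KI and 0.353% in the control, so the comparison was repeated within bands of mitochondrial share.

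In cardiomyocyte-like nuclei within the 5% limit, Ryr2 RNA was lower in the CF-KI library than in the control, while RNA of Casq2, Trdn and Jph2, which surround the channel, was higher. Expression is given in CPM, a gene's share of the non-mitochondrial UMIs of the class on the usual scale, and ratios are on the log2 scale, CF-KI over control. With 1 library per group there is no replicate check, no test was made, and the 95% intervals reflect the counting of UMIs alone, because the nuclei of a library do not stand for replicates. Ryr2 had 6364 CF-KI and 15462 control UMIs, or 1954 and 2695 CPM. The ratio was -0.46 (interval -0.51 to -0.42), a level 0.725 times that of the control. When nuclei were thinned to 500 UMIs, a Ryr2 UMI was found in 60.5% of CF-KI and 67.5% of control cardiomyocyte-like nuclei, against 91.5% and 96.5% unthinned. Fibroblast-like nuclei, which should lack the channel, were taken without a mitochondrial limit, unlike the cardiomyocyte-like nuclei beside them. Their thinned shares were 16.4% and 6.67%, at median depths of 750 and 957 UMIs. Thinning left out 326 CF-KI and 72 control fibroblast-like nuclei.

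Casq2, the calcium buffer, stood at 192.5 CPM (627 UMIs) in CF-KI against 125.7 CPM (721 UMIs) in the control, a ratio of 0.61 (0.46 to 0.77). Its anchor Trdn had 462.0 and 332.9 CPM (1505 and 1910 UMIs), a ratio of 0.47 (0.37 to 0.57). The junctional protein gene Jph2 had 156.2 and 110.5 CPM (509 and 634 UMIs), a ratio of 0.50 (0.33 to 0.67). The intervals of these 3 partners of the channel lay above 0, on the other side from Ryr2. Dhrs7c reached 63.8 CPM in CF-KI against 10.6 CPM in the control, from 208 and 61 UMIs. That is a ratio of 2.59 (2.17 to 3.02) with a 95% interval of 4.49-fold to 8.13-fold, which ranked 1 of the 4517 genes with at least 200 UMIs in these nuclei. Ryr2 ranked 451 from the lowest in the same list. Thinned to 500 UMIs, a Dhrs7c UMI was seen in 3.31% of CF-KI and 0.499% of control cardiomyocyte-like nuclei. In fibroblast-like nuclei without a mitochondrial limit the shares were 1.27% and 0.0855%. Unthinned, they were 11.1% and 2.72% in cardiomyocyte-like nuclei, and 2.33% and 0.195% in fibroblast-like nuclei.

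On the uptake side, the pump gene Atp2a2 was nearly level, at 3169 CPM in CF-KI against 2907 in the control, with a ratio of 0.12 (0.09 to 0.16). Phospholamban RNA (Pln) was at 3571 and 2774 CPM, a ratio of 0.36 (0.33 to 0.40). Sarcolipin (Sln) had few UMIs, 62 and 93, or 19.0 and 16.2 CPM, and its ratio of 0.23 had an interval that included 0 (-0.26 to 0.71). Within the limit, the inhibitor Pln thus stood further above the control than the pump it restrains.

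The exchanger Slc8a1, which carries calcium out across the cell surface, was at 1035 CPM in CF-KI against 689.4 in the control (3373 and 3955 UMIs), a ratio of 0.59 (0.52 to 0.65). A Slc8a1 UMI was present in 37.6% of thinned CF-KI nuclei and 26.6% of thinned control nuclei. In fibroblast-like nuclei without a mitochondrial limit the thinned shares were 7.76% and 5.58%. Unthinned, 75.5% and 66.8% of cardiomyocyte-like nuclei had such a UMI. The kinase gene Camk2d differed little, at 847.8 and 832.2 CPM, a ratio of 0.03 (-0.04 to 0.09).

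By a limit of 1.5-fold in either direction, 3 of the 10 genes were higher in CF-KI (Casq2, Dhrs7c and Slc8a1) and 0 were lower. Over all 9400 genes with at least 50 UMIs, 17.9% were higher and 7.31% lower by the same limit, and the 3 of 10 are to be read beside that share. The median ratio of the 10 genes was 0.42, and that of all genes 0.10. Slc8a1 and Casq2 lay just past the limit at log2 ratios of 0.59 and 0.61, and Jph2 and Trdn fell short of it at 0.50 and 0.47. Scaling by TMM or by median of ratios moves all genes down by 0.14 and 0.15, which leaves Dhrs7c alone past the upper limit, puts Ryr2 past the lower one at -0.60 and -0.61, and brings Atp2a2 to -0.02 in either case. Over all genes, 13% were then higher and 12.2% lower under TMM, and 12.8% and 12.6% under median of ratios.

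**Figure D1:**
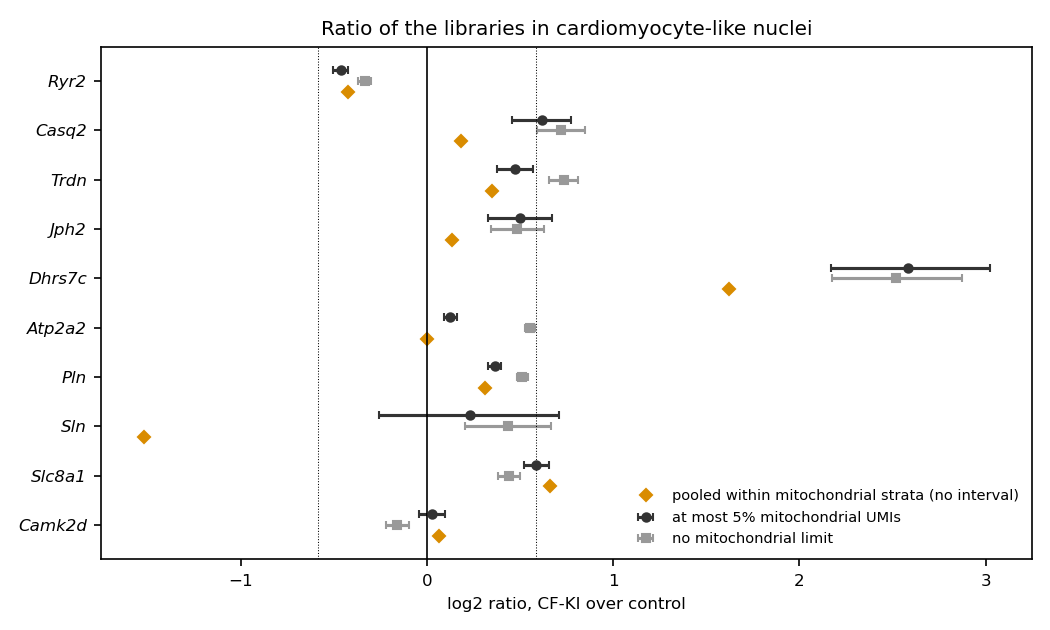
Log2 ratio of CF-KI over control for each gene in cardiomyocyte-like nuclei with at most 5% mitochondrial UMIs (circles), without a limit (squares) and pooled within mitochondrial bands (diamonds). Bars are 95% counting intervals, and dotted lines mark 1.5-fold; Ryr2 lies below 0 and Dhrs7c furthest above 0 in each of the 3 forms.

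Marker RNA of other cells and of the heart chambers differed between the libraries. Summed over the fixed marker lists, cardiomyocyte-like nuclei within the limit held 956 CPM of 6 erythroid markers in CF-KI against 254 in the control. The 13 fibroblast markers summed to 2015 and 1119 CPM, and the 12 endothelial markers to 655 and 261 CPM. Airway epithelial markers went the other way, with 1 of 8 detected in CF-KI (0.921 CPM) and 7 of 8 in the control (324 CPM). Endocardial, adipocyte and T cell sums were also lower in CF-KI, at 597 and 632, 285 and 354, and 2.46 and 5.23 CPM. The 8 ventricular markers summed to 4789 and 2098 CPM, and the 12 atrial markers to 385 and 480 CPM. Free RNA was estimated at 15.9% of the UMIs of these nuclei in CF-KI and 10.2% in the control. With free RNA subtracted, the ratio was -0.43 for Ryr2, 2.62 for Dhrs7c, 0.65 for Slc8a1 and 0.62 for Casq2. The part of erythroid, airway and ventricular RNA in the ratios was not tested.

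Because mitochondrial share separated the libraries, each gene was followed through 5 bands of that share. The bands held 105, 616, 941, 898 and 1645 CF-KI nuclei and 1845, 287, 73, 95 and 236 control nuclei, at under 1%, 1 to 2.5%, 2.5 to 5%, 5 to 20% and over 20%. Inside the bands the median share still differed. It was 0.744%, 1.79%, 3.57%, 7.78% and 67.3% in CF-KI and 0.292%, 1.43%, 3.20%, 11.5% and 58.6% in the control. Malat1, a long noncoding RNA kept in the nucleus, made up 45.1% and 47.8% of non-mitochondrial UMIs in the lowest band of CF-KI and control, and 3.51% and 9.24% in the highest. Nuclei of the highest band thus carried little of the RNA that marks nuclei.

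By CPM, with Malat1 in the total, Ryr2 was lower in CF-KI in all 5 bands. It stood at 1979, 1972, 1934, 2083 and 2979 CPM in CF-KI and at 2665, 2817, 3389, 2431 and 3447 CPM in the control, from the lowest band to the highest. The ratios were -0.43, -0.51, -0.81, -0.22 and -0.21, and no band's interval reached 0 on this scale. At 5 to 20%, Malat1 made up 32.9% of the total in CF-KI and 23.3% in the control, which lowers the CPM of other genes in CF-KI. Over 20% its share was the smaller one in CF-KI. Ratios of single bands were not computed without Malat1, so the value at 5 to 20% may depend on that total. Pooled within bands, the ratio was -0.42. In the lowest band Ryr2 was at 0.742 times the control level. The contractile genes Ttn and Myh6 were also lower in CF-KI in all 5 bands, Ttn at -0.57, -0.79, -0.88, -0.74 and -0.21 and Myh6 at -0.23, -0.56, -0.58, -0.83 and -0.34. Other contractile genes went the other way. In non-atrial nuclei within the limit, Myl2 was at 1856 CPM in CF-KI and 583 in the control, a ratio of 1.67. Myl3 was at 1644 and 676 CPM there, a ratio of 1.28.

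Dhrs7c was higher in CF-KI in all 5 bands, with ratios of 2.60, 2.06, 2.89, 1.08 and 0.99. The counts behind them were 17, 92, 99, 93 and 109 UMIs in CF-KI against 51, 9, 1, 7 and 15 in the control. The third band rests on that single control UMI (interval 0.37 to 8.20), and the fourth band's interval included 0 (-0.02 to 2.43). Pooled within bands the ratio was 1.62. The control level itself differed between bands, being 6.07-fold higher over 20% than under 1%, against 1.98-fold in CF-KI.

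Slc8a1 was higher in CF-KI in each band, with ratios of 0.77, 0.66, 0.76, 0.75 and 0.17, and 0.66 pooled. Only the band over 20% had an interval that included 0 (-0.15 to 0.49). Pln was also higher in all 5 (0.14, 0.42, 0.59, 0.15 and 0.30), as was Trdn (0.35, 0.53, 0.53, 0.32 and 0.19), with pooled ratios of 0.31 and 0.35. The Trdn interval over 20% included 0 (-0.02 to 0.40). By point value, Slc8a1, Pln, Trdn and Dhrs7c were the genes above the control in every band.

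Casq2 and Jph2 lay nearer to 0 pooled over the 5 bands than within the 5% limit. The pooled values also take in nuclei above 5%, so the change does not come from matching alone. The Casq2 ratios were 0.58, 0.14, 0.37, -0.01 and 0.04, with an interval above 0 in the lowest band alone, and 0.18 pooled. The Jph2 ratios went from 1.03 (0.62 to 1.41) under 1% to -0.43 (-0.79 to -0.06) over 20%, and 0.14 pooled. Atp2a2 lay on both sides of 0 (0.09, -0.13, -0.08, -0.28 and 0.15) and pooled to -0.00. Camk2d did the same, from 0.59 at 5 to 20% to -0.49 over 20%, and pooled to 0.06. Pooled in this way, 2 of the 10 genes were at least 1.5-fold higher (Dhrs7c and Slc8a1) and 1 was lower (Sln), against 11% and 12.3% of 10461 genes. The median of the 10 was then 0.16 and that of all genes -0.02. Sln pooled to -1.52 with the atrial cluster described below and to 0.01 without it.

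Counted band by band at 1.5-fold, 1 to 3 of the 10 genes were higher and 0 to 2 lower. Sln was among the lower genes in every band but the lowest. These counts keep the atrial cluster described below, without which each band's interval of Sln included 0. Under 1%, 3 were higher and 0 lower, against 23% and 15.7% of all genes; Casq2, at 0.58, fell just short and brings the number to 4 once 0.5 UMIs are added to each count, as is done for all genes. At 1 to 2.5% the counts were 2 and 1, against 11.5% and 16.8%, and at 2.5 to 5% they were 3 and 2, against 18.5% and 22.5%. At 5 to 20% they were 3 and 1, against 13.8% and 20.1%, and over 20% they were 1 and 1, against 18.1% and 9.97%.

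**Figure D2:**
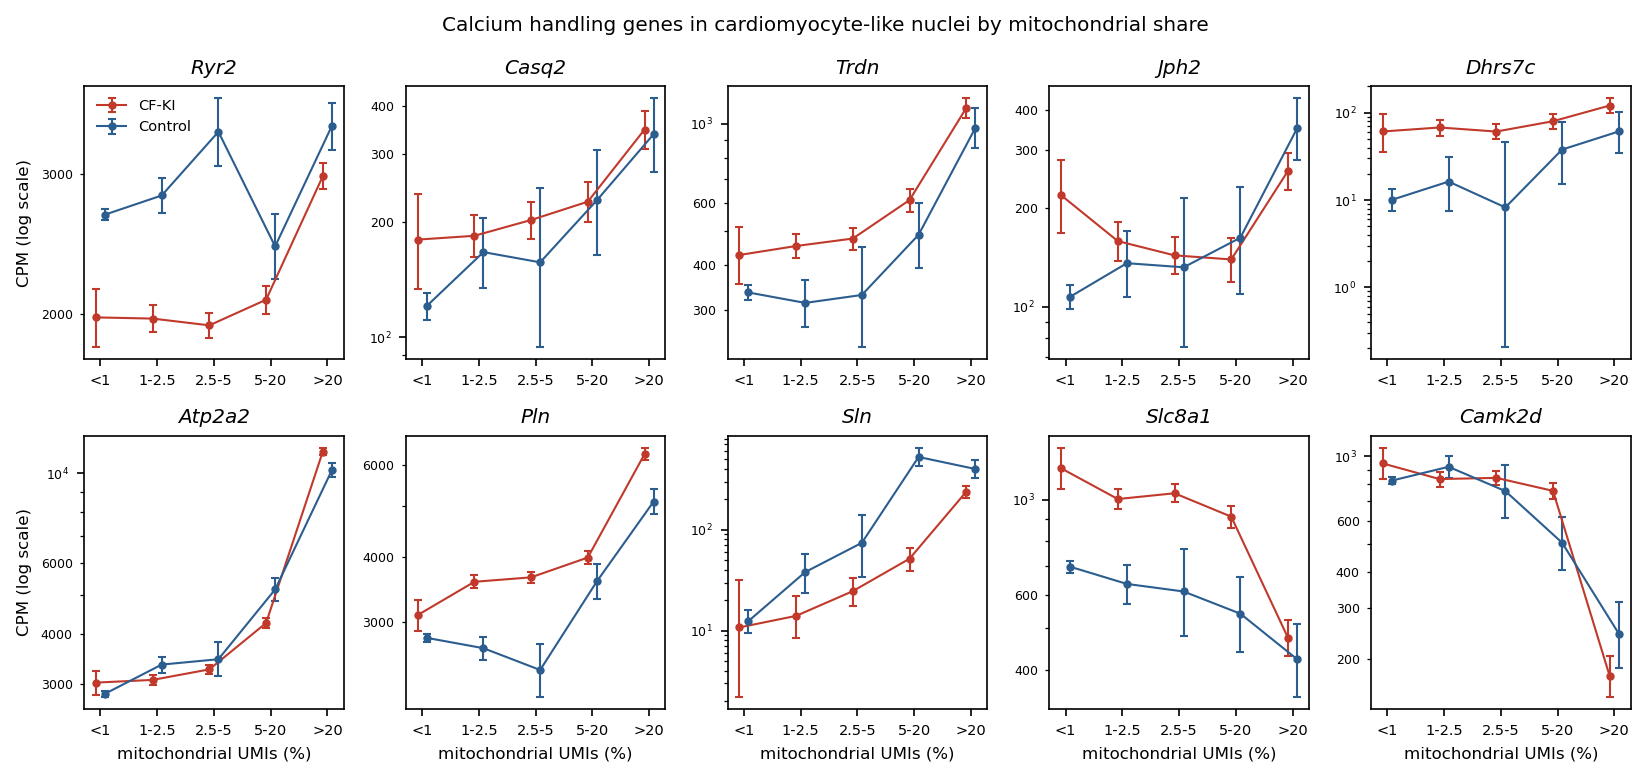
CPM (log axis) of each gene in cardiomyocyte-like nuclei by band of mitochondrial share, with 95% counting intervals, for CF-KI and control. The Ryr2 line of CF-KI runs below that of the control in all 5 bands, while the Slc8a1 and Pln lines run above it.

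Within each library, the genes followed mitochondrial share in their own ways. From the lowest to the highest band Atp2a2 was 3.73-fold higher in CF-KI and 3.58-fold higher in the control, Trdn 2.59-fold and 2.91-fold, and Pln 2.04-fold and 1.82-fold. Ryr2 differed less, at 1.51-fold and 1.29-fold. Slc8a1 went down, to 0.401 and 0.608 of its level, and Camk2d to 0.185 and 0.297. By CPM with Malat1 in the total, Atp2a2, Trdn, Pln and Ryr2 were thus higher over 20% than under 1% in both libraries. The exchanger and kinase genes were lower. Malat1 itself was at 0.0778 (CF-KI) and 0.193 (control) of its level under 1%, which raises the CPM of other genes over 20%. Slc8a1 and Camk2d went against that shift. These folds were not computed without Malat1, so the higher values, that of Ryr2 above all, may depend on the total.

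Without any mitochondrial limit, 3 of the 10 were at least 1.5-fold higher in CF-KI (Casq2 at 0.72, Trdn at 0.73 and Dhrs7c at 2.52) and 0 were lower, against 27.4% and 6.97% of 10465 genes. Ryr2 was at -0.33 (-0.37 to -0.30). Atp2a2, whose level was so unequal between bands, then had a ratio of 0.55 (0.53 to 0.58), and Pln one of 0.51 (0.48 to 0.54), so that the order of pump and inhibitor turned.

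Sln needs the chambers told apart, since sarcolipin is a gene of the atrium in the mouse heart. A cluster of 55 CF-KI and 102 control nuclei raised 11 of 12 atrial markers. Sln was at 3007 and 1312 CPM there, and at 27.4 and 12.5 CPM in the other cardiomyocyte-like nuclei without a mitochondrial limit, a log2 difference between chambers of 6.78 in CF-KI and 6.71 in the control. Nuclei with at most 5% mitochondrial UMIs gave 5.36 (3.86 to 6.57), from 6 atrial UMIs in CF-KI, and 4.68 (4.02 to 5.32), from 33 in the control. Pln was lower in the atrial cluster than elsewhere, by a log2 ratio of -0.91 (-1.16 to -0.67) in CF-KI and -1.40 (-1.62 to -1.19) in the control. The 2 inhibitors of the pump thus had opposite chamber patterns in both libraries. Without the limit, Ryr2 was higher in the atrial cluster by 0.57 (0.36 to 0.77) in CF-KI and 0.37 (0.24 to 0.49) in the control, and Atp2a2 by 0.78 and 0.59. With it, the difference of Ryr2 was 0.20 (-0.53 to 0.85) and 0.37 (0.22 to 0.51), and that of Atp2a2 -0.10 (-0.73 to 0.46) and 0.21 (0.06 to 0.35).

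The atrial share of cardiomyocyte-like nuclei differed between the libraries, at 1.31% in CF-KI and 4.02% in the control, or 0.361% and 3.08% within the limit. Sln was lower in CF-KI in all 5 bands (-0.21, -1.44, -1.59, -3.35 and -0.75) with the atrial cluster kept. With that cluster left out, the values were 0.19, -0.84, 0.36, -0.23 and 0.59, and each interval included 0. In non-atrial nuclei as a whole, Sln was higher in CF-KI by 0.69 (0.14 to 1.24) within the limit, from 56 and 60 UMIs, and by 1.13 (0.72 to 1.56) without it. Ryr2 kept its direction without the atrial cluster, at -0.46 within the limit and at -0.42, -0.48, -0.80, -0.23 and -0.19 over the bands.

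Inside the atrial cluster, Sln (192 and 213 UMIs) had a ratio of 1.20 (0.91 to 1.49), Pln 0.99 (0.66 to 1.31) and Atp2a2 0.75 (0.58 to 0.91). Ryr2, at 3180 and 3479 CPM, had a ratio of -0.13 with an interval that included 0 (-0.37 to 0.10), and Camk2d was at -0.66 (-1.27 to -0.10). Of the 10 genes, 4 were at least 1.5-fold higher and 1 lower, against 41.2% and 17.2% of 493 genes whose median was 0.35. The atrial nuclei of the libraries differed in mitochondrial share, with medians of 28.0% and 1.72%, and 6 CF-KI against 68 control nuclei were within the limit, so the library and the quality of the nuclei cannot be told apart there.

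**Figure D3:**
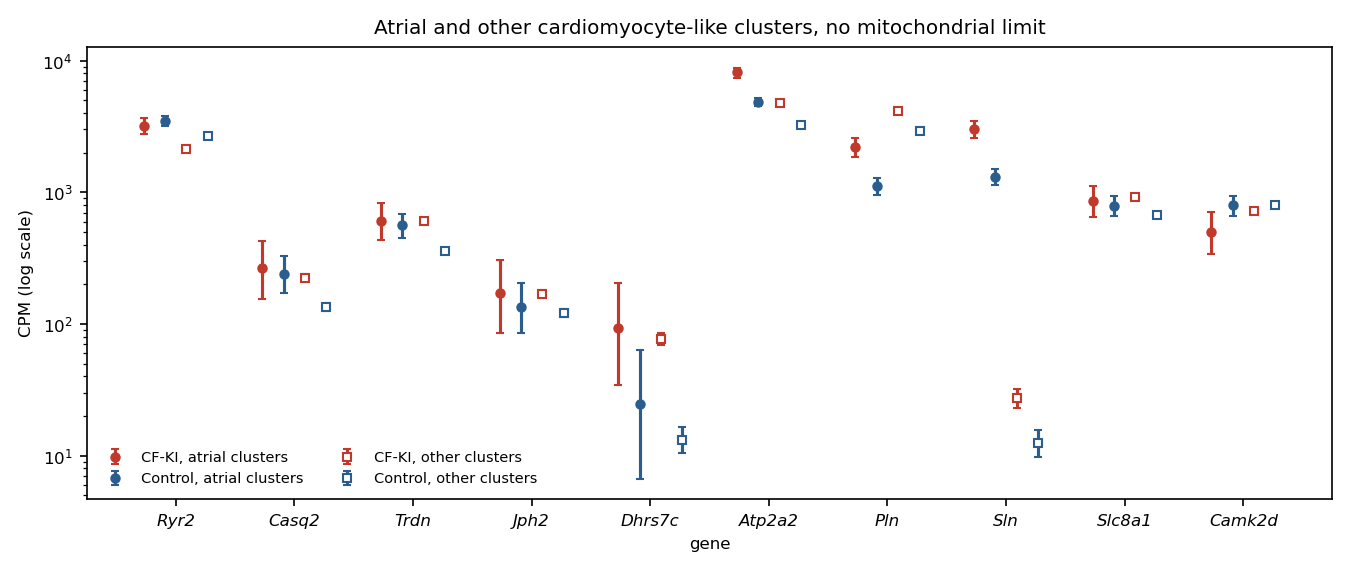
CPM (log axis) of each gene in the atrial cluster (filled) and the other cardiomyocyte-like clusters (open) of each library, without a mitochondrial limit, with 95% counting intervals. Sln is far apart between chambers (log2 differences of 6.78 and 6.71), and Pln is lower in the atrial cluster of either library.

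The 10 genes differ widely in length, which matters in nuclei because much captured RNA is unspliced. Ryr2 spans 554 kb (chr13:11553102-12106945, minus strand, GRCm38), Trdn 396 kb, and Slc8a1 365 kb, and Camk2d is also above 200 kb, while Pln spans 8.32 kb and Sln under 10 kb. Over all genes in cardiomyocyte-like nuclei within the limit, the median ratio was 0.30 for spans up to 10 kb, 0.10 from 10 to 50 kb, -0.01 from 50 to 200 kb and 0.01 above 200 kb. Spearman's rho of ratio on span was -0.21 across 9383 genes, which share the same pair of libraries and are not independent. Against the 464 genes longer than 200 kb, Ryr2 stood above 10.1% of them, and Slc8a1 above 89.4%, Trdn above 84.7% and Camk2d above 51.3%. Among genes of this length, Ryr2 thus lay low, Slc8a1 and Trdn high and Camk2d in the middle. Pln stood above 54.1% of the short genes, Casq2 above 91.2% and Jph2 above 87.1% of genes of 50 to 200 kb, and Dhrs7c (17.8 kb, chr11:67798187-67816002) above 99.95% of genes of 10 to 50 kb. Pln lies within Cep85l on the opposite strand, and Slc8a1, Ryr2, Trdn, Atp2a2 and Camk2d also overlap genes on the opposite strand. Reads there could be counted for either gene if strand was not used. Ryr2, Casq2, Trdn, Atp2a2 and Camk2d overlap annotated genes of their own strand, which strand does not separate. Jph2, Dhrs7c and Sln overlap none.

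**Figure D4:**
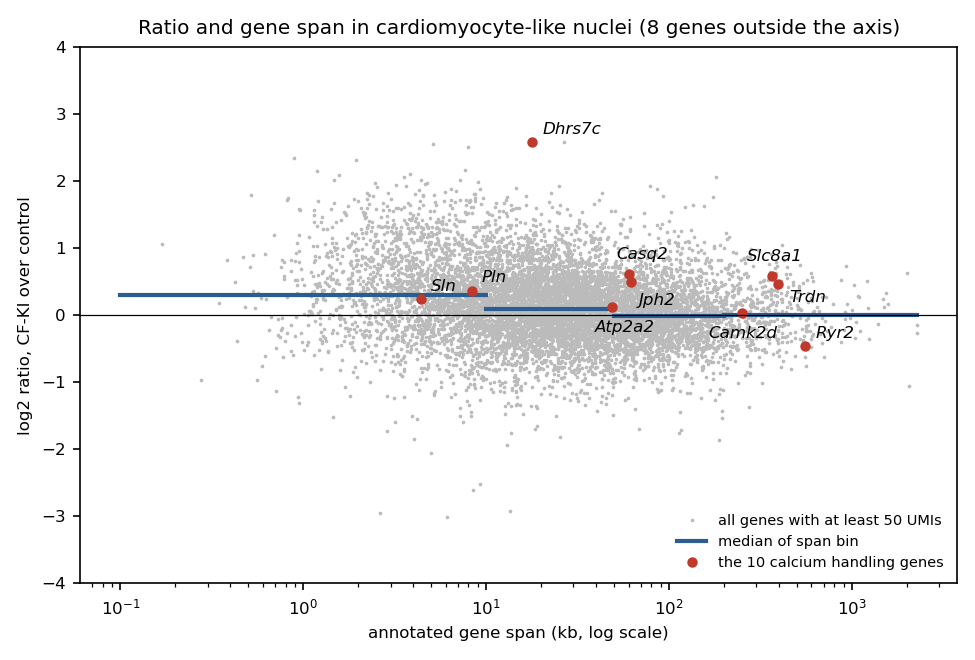
Log2 ratio of CF-KI over control against annotated gene span (log axis) for genes with at least 50 UMIs in cardiomyocyte-like nuclei within the limit, with the median of each span bin (lines) and the 10 genes (labelled points). Ryr2 lies at the lower and Slc8a1 and Trdn at the upper side of the long genes.

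A wider list of 72 calcium genes was read beside these 10. Of its 62 other genes, 49 had at least 20 UMIs, of which 10 were at least 1.5-fold higher in CF-KI, 3 were lower and 36 lay between, with a median of 0.20. With the same minimum, 20.7% of all genes were higher and 8.78% lower. Pooled within mitochondrial bands, 2 of the others were higher and 3 lower, against 11% and 12.3% of genes with at least 50 UMIs. Pooled ratios take in nuclei of every mitochondrial share, while the other ratios of this list are from nuclei within the limit. A difference between them thus also reflects the added nuclei.

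At the release unit, 0 of 10 others were higher and 2 lower. The lower ones were Speg, a kinase of the junction (-0.64, -0.82 to -0.47, and -0.87 pooled), and Ryr3. Ryr3 had 5 and 17 UMIs and a ratio of -0.95, with an interval that included 0 (-2.74 to 0.55). Asph, which gives rise to junctin, was at -0.24. Tmem38b (0.48), a counter-ion channel subunit, Srl (0.47) and Sri (0.43) were highest, and pooled within bands they were at 0.19, -0.45 and 0.11. Among uptake genes, Strit1, a micropeptide that activates the pump, had 15 and 6 UMIs (2.14, 0.69 to 3.79, and 2.78 pooled). S100a1, an activator of the pump and channel, was at 0.99 within the limit and 0.15 pooled over all bands. Hax1 was at 0.20 (-0.50 pooled) and Tmem41b at 0.06 (0.07 pooled).

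At the cell surface, Cav3, the muscle caveolin, was at 0.91 (0.15 pooled), Atp2b4 at 0.49, Atp2b1 at 0.13, Slc8b1 at 0.11 (-0.30 pooled) and Nexn at -0.04. In the kinase group, Calm2 was at 0.93 (0.75 pooled) and Calm3 at 0.82 (-0.27 pooled). The other CaMKII genes Camk2a (-0.63) and Camk2g (-0.40) and the scaffold Akap6 (-0.26) were lowest of the kinase group. Among genes of IP3 receptors, store refilling and mitochondrial uptake, Smdt1 was at 1.54 (0.20 pooled), Orai1 at 0.88 (0.47 pooled) and Vdac2 at 0.85 (0.05 pooled). The IP3 receptors Itpr1 and Itpr2, the other family of release channels, were at -0.54 and -0.42, and Orai3 at -0.58 from 8 and 21 UMIs.

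The genes whose ratios over the 5 bands were most like those of Ryr2, among 5785 genes with at least 200 UMIs, were Alpk3, Fcho2 and Mtus1. Their mean absolute differences from Ryr2 were 0.07, 0.09 and 0.09 on the log2 scale. The genes most like Dhrs7c were Zrsr1 (0.28), Hand2 (0.46) and Serpinf1 (0.48).

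Outside cardiomyocyte-like nuclei, UMIs of the 10 genes were set against RNA that heart muscle cells shed into other droplets. In 9 other classes, each of 50 or more nuclei per library, cardiomyocyte markers were at 19.9% to 37.2% of their cardiomyocyte-like level in CF-KI and at 9.33% to 23.0% in the control. Each gene was therefore read against that level, where 1 means as much as the markers carry over. Ryr2 was at 0.55 to 0.92 in CF-KI and 0.35 to 0.74 in the control, below 1 in 9 of 9 classes of either library. Its CPM in other classes ranged from 275 in mesothelial-like to 709 in macrophage-like nuclei of CF-KI, and from 135 in mesothelial-like to 464 in B cell-like nuclei of the control, against 2155 and 2717 in cardiomyocyte-like nuclei without a limit. Ryr2 was higher in CF-KI in 8 of these 9 classes, the reverse of cardiomyocyte-like nuclei, with fibroblast-like nuclei at 360 and 142 CPM.

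Casq2 in pericyte-like nuclei was above what the markers carry. It stood at 274 CPM in CF-KI (82 UMIs in 313 nuclei) against 143 CPM (61 UMIs in 475 nuclei) in the control. That is 3.97 times the marker level in CF-KI and 4.87 times in the control, where the highest single marker reached 2.58 and 4.18. Its ratio between the libraries there was 0.94 (0.44 to 1.44). Camk2d in adipocyte-like nuclei of the control was 6.11 times the marker level, above the highest marker at 4.39, from 153 UMIs, and 1.52 times in CF-KI. In that class Camk2d was at 271 CPM (CF-KI) and 456 CPM (control). Dhrs7c in fibroblast-like nuclei, the class in which Cre is designed to act, was at 27.3 CPM (90 UMIs) in CF-KI against 1.69 CPM (7 UMIs) in the control, a ratio of 4.02 (2.92 to 5.37). That was 1.20 and 0.964 times the marker level. Dhrs7c was higher in CF-KI in 9 of 9 other classes, but so were Casq2, Trdn, Atp2a2 and Pln. Ryr2, Jph2 and Slc8a1 were higher in 8 of them, Sln in 7 and Camk2d in 3. The same count over all genes is not given. In the control, 1 of the 9 classes had at least 10 Dhrs7c UMIs.

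**Figure D5:**
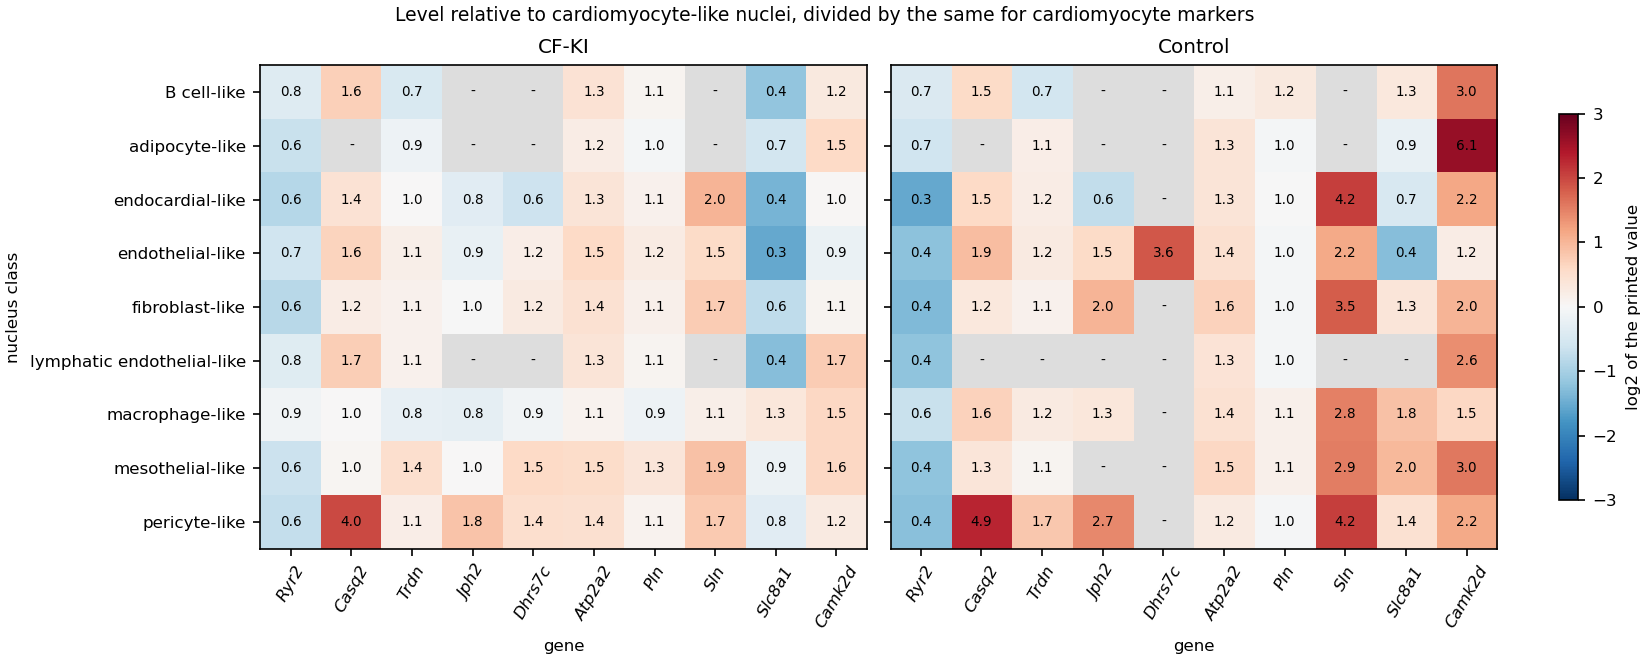
Level of each gene relative to cardiomyocyte-like nuclei, divided by the same for cardiomyocyte markers, in 9 other classes of each library. Colour gives log2 of the printed value and grey cells have under 10 UMIs; Ryr2 is below 1 in each row, and Casq2 is highest in pericyte-like nuclei.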

How the data were processed

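Single-nucleus RNA of mouse cardiac tissue was captured with a 10x Genomics 3′ v3 kit, 1 library per group, per the labels. The deposited values are UMI counts per gene and barcode, made by the authors with Cell Ranger 6.1.1 on mm10, per the submitters' processing notes. The annotation, the use of intronic reads and the cell calling settings are not given in the sources used here. Barcodes with at least 200 genes were kept, and doublets were removed with Scrublet as in scanpy 1.11.5, which called 15.3% of CF-KI and 3.02% of control barcodes (expected 12.1% and 9.01%). Nuclei of both libraries were grouped in 1 Leiden clustering (leidenalg 0.10.2, resolution 0.8) from 15 neighbours in 30 principal components of 2000 variable genes, and clusters were named from fixed marker lists (at least 3 markers raised by a log2 fold of 1).

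Counts were summed per class and library, leaving mitochondrial genes out of the total. CPM have exact Poisson intervals, log2 ratios conditional exact binomial intervals and shares of nuclei exact Clopper-Pearson intervals, all at 95%. Ratios pooled over mitochondrial bands are Mantel-Haenszel rate ratios. Counts past 1.5-fold and medians, of all genes and of the 10, add 0.5 UMIs to each count unless stated (pooled ratios add none). As alternatives, sums were scaled with TMM (edgeR 4.0.16) or with size factors of DESeq2 1.42.0. Free RNA was estimated from markers with at least 100 UMIs and subtracted with the make-up of the whole library. Positions come from GENCODE vM21 on GRCm38 and promoters from RefSeq. The code was tested on simulated data. Named beside the 10 genes are the 3 highest and 3 lowest others of each role with at least 20 UMIs, and the 3 genes nearest to Ryr2 and to Dhrs7c; 1 gene that this rule names is not reported here. The members and lists were chosen with earlier results of these data known.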

Additional observations from a re-analysis of the deposited data

How the results depend on the processing

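No paired analysis was possible because each group has 1 library, so the number the titles share pairs no replicates and no library can be left out. Over 24 alternatives Ryr2 stayed below 0, between -0.61 and -0.33, and Dhrs7c above 0, between 1.62 and 2.76. Casq2, Jph2, Pln, Slc8a1 and Trdn were above 0 in all 24 as well. Sln ranged from -1.53 to 1.13 and Camk2d from -0.41 to 0.19, on both sides of 0. Atp2a2 changed side under TMM scaling (-0.015), median-of-ratios scaling (-0.023) and pooling within mitochondrial bands (-0.0019).

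Ryr2 was at -0.60 under TMM and -0.61 under median-of-ratios scaling, at -0.57 with Malat1 left out of the total and at -0.59 with it left out and no limit. It was at -0.33 without a limit and, likewise without one, at -0.33 with atrial clusters left out. Pooled within bands it was at -0.42, or -0.39 without Malat1 and -0.41 without atrial clusters, and thinned to 500 UMIs at -0.41. The median of the 10 genes was 0.32 without Malat1 (0.24 also with no limit), 0.28 under TMM, 0.27 under median of ratios and 0.27 with at most 1% mitochondrial UMIs. Pooled within bands it was 0.16, or 0.18 without Malat1 and 0.20 without atrial clusters.

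The number of genes at least 1.5-fold higher was 1 without Malat1 (with or without the limit), under both scalings and with all UMIs as the total. All genes at or past the limit were then 14.1% (18.2% without the limit), 13% under TMM, 12.8% under median of ratios and 16.6%. The number lower was 1 under both scalings, without Malat1 and the limit, and pooled within bands (with or without Malat1), against 12.2%, 12.6%, 16.8%, 12.3% and 10.8% of all genes. Pooled within bands that gene was Sln, which was at 0.01 once atrial clusters were left out. With minimums of 20 and 200 UMIs the background was 20.7% and 14.7% higher and 8.78% and 5.89% lower. The Malat1 alternatives and those that leave atrial clusters out of the pooled or unlimited comparison were added after seeing the data. Depth limits Sln and Dhrs7c most, with 62 and 93, and 208 and 61 UMIs. Part of the differences between alternatives follows from the smaller number of nuclei or the other total each uses; the cause of the rest was not tested.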

Other observations

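Dhrs7c lies on chromosome 11, 8.26 Mb from Nlrp3, the gene that carries the A350V allele. This distance was looked up after the ratio was seen. In cardiomyocyte-like nuclei of at most 5% mitochondrial UMIs, 17.1% of 140 genes within 10 Mb of Nlrp3 were at least 1.5-fold higher in CF-KI and 12.1% lower. On chromosome 11 beyond that distance 21.5% of 594 genes were higher and 9.09% lower, and on other chromosomes 17.6% of 8649 genes were higher and 7.10% lower. Zrsr1, the gene most like Dhrs7c over the mitochondrial bands, lies on the same chromosome at -36.6 Mb from Nlrp3 (counted along the chromosome, with Dhrs7c on the other side). How Dhrs7c came to differ was not tested.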
